A study of Arabidopsis thaliana with 12 samples.

Results

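AT1G66090 and AT1G72920 are Arabidopsis thaliana genes of the TIR (Toll/interleukin-1 receptor) domain family whose transcripts were far more abundant in seedlings treated with chitooctaose than in seedlings given water. They were selected on that measured induction on these same arrays, and each is measured by 1 probe set assigned to it alone, so 2 genes of the 13355 that have such a probe set are described here. Their levels and their changes with chitooctaose are therefore descriptions and carry no test. Both rose above the intensity floor of 16 on some arrays, so both entered the fits.

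Plant TIR domains are enzymes that cleave NAD+ and make small signalling molecules. These molecules are sensed by complexes of EDS1 with PAD4 or SAG101, which act through helper receptors of the ADR1 and NRG1 families in immunity and cell death. Many TIR proteins are immune receptors that also carry a nucleotide-binding site and leucine-rich repeats, while shorter forms lack the repeats or carry the TIR domain alone. AT1G66090 encodes a TIR protein with a nucleotide-binding site and no leucine-rich repeats, and AT1G72920 a short TIR-domain protein.

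Whole seedlings 14 days old, grown on sugar-containing medium under constant light, were compared in 4 groups of 3 arrays: an ERF5 and ERF6 double mutant (erf5/6) treated with chitooctaose, the same mutant treated with water, wild type treated with chitooctaose and wild type treated with water. Chitooctaose, a soluble oligomer of the fungal wall polymer chitin, was given at 1 µM for 30 min, and the controls got an equal amount of water. ERF5 and ERF6 are ethylene response factors, and their mutant alleles are not given in the labels. No probe set was named for either gene in the gene table used, so the genotype labels were not checked against the targeted transcripts. Replicates are called biological in the labels with no word on separate cultures, so p-values measure the spread between these samples, which may in part be technical. In whole seedlings, fewer cells of a type and less RNA per cell cannot be told apart.

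Of 22746 probe sets on the array, limma was run on the 18680 that exceeded the floor somewhere among the 12 arrays. Correlations of log2 intensity were at least 0.984 within a group and lay between 0.952 and 0.964 between treatments. Principal component 1, with 64.9% of the variance, separated the treatments. On component 2, with 7.42%, array 2 of chitooctaose-treated wild type and array 1 of water-treated wild type stood apart from the other 10 arrays. The leaf genes RCA and LHCB4.1 and the root gene PYK10, which mark the organs of a seedling, were bright in all 4 groups, with lowest group means of 6140, 5150 and 3840, and none was called for chitooctaose in either genotype. The root peroxidase gene AT5G17820 had -0.30 in the mutant and 0.02 in wild type and was not called, and none of 5 seed storage genes had a probe set of 1 gene.

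AT1G66090 stood at 796, 694 and 786 units of normalized intensity on the 3 chitooctaose arrays of the mutant, against 27.4, 27.2 and 16 on its 3 water arrays. In wild type it stood at 514, 572 and 555 with chitooctaose, against 21.8, 26.0 and 19.0 in water. Treated and water arrays were far apart in both genotypes: the lowest treated array exceeded the highest water array 25.3-fold in the mutant and 19.7-fold in wild type. The value of 16 on water array 3 of the mutant is the floor, since the deposited intensity there was 14.5, so the level on that array has only an upper bound.

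AT1G72920 stood at 345.5, 445 and 377 units on the chitooctaose arrays of the mutant, against 32.6, 23.0 and 16.1 on its water arrays. In wild type the values were 461, 394 and 419.5 with chitooctaose, against 21.4, 20.5 and 16 in water. Again the treatments did not overlap, with the lowest treated array 10.6-fold above the highest water array in the mutant and 18.4-fold in wild type. Treated arrays all above water arrays were found for 8.8% of tested probe sets in the mutant and 9.12% in wild type. Water array 3 of wild type was at the floor, with a deposited intensity of 14.1.

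**Figure D1:**
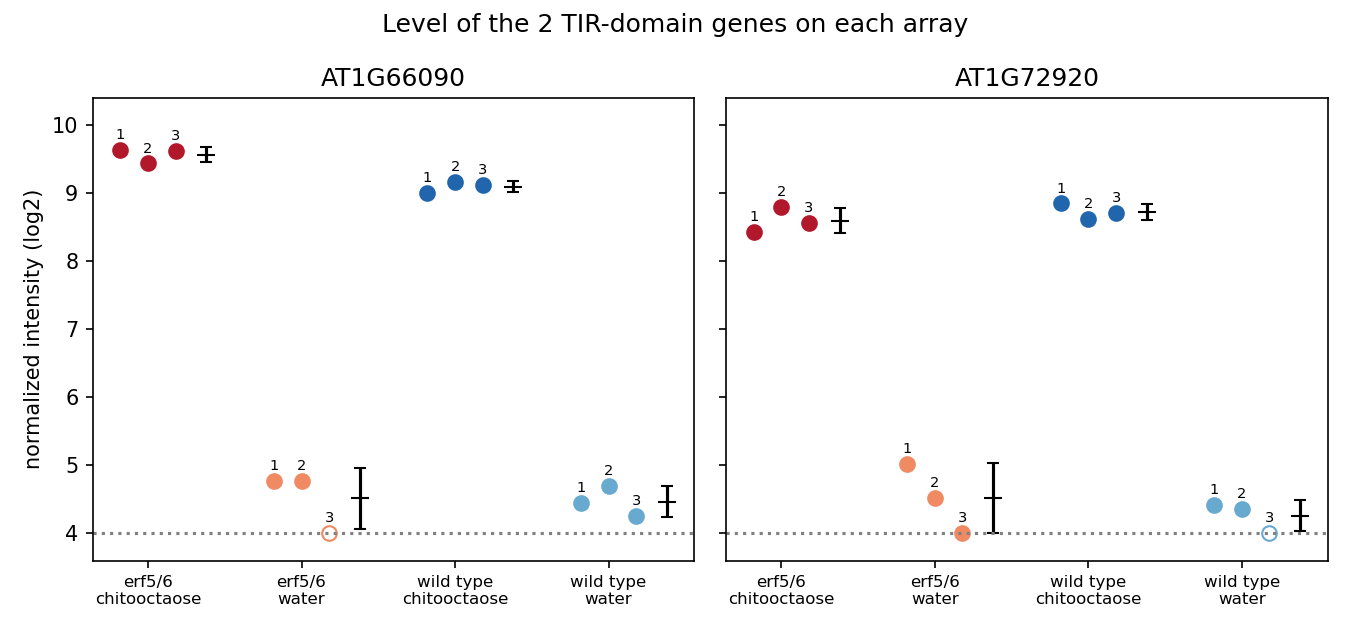
Normalized intensity (log2, vertical axis) of AT1G66090 and AT1G72920 on each of the 12 arrays, numbered by replicate, in 4 groups along the horizontal axis. Bars give mean ± SD over 3 arrays, the dotted line is the floor of 16 units and open circles lie at it. All 6 chitooctaose arrays sit far above all 6 water arrays for both genes, and water array 3 is the lowest of its group in each case.

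On the log2 scale the change of AT1G66090 was 5.05 ± 0.19 in the mutant and 4.63 ± 0.19 in wild type (SE, n = 3 arrays per group), or 33.1-fold and 24.7-fold. That of AT1G72920 was 4.08 ± 0.22 in the mutant and 4.47 ± 0.22 in wild type, or 16.9-fold and 22.1-fold. AT1G66090 thus had the larger of its 2 changes in the mutant, and AT1G72920 in wild type. Over all tested probe sets, 5.95% were called higher in the mutant and 6.06% in wild type at an adjusted p under 0.05. Because the water levels lie near the floor, the size depends on how low values are treated: with 32 units added to every intensity in place of the floor, AT1G66090 changed by 3.85 in the mutant and 3.42 in wild type, and AT1G72920 by 2.92 and 3.17.

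Among the probe sets of 1 gene that were above the floor on at least 1 water array of the genotype, AT1G66090 ranked 3 of 10083 by its change in the mutant and 6 of 10047 in wild type. Its neighbours in that order in the mutant were the zinc finger gene STZ at 5.17 and the metalloproteinase gene AT1G24140 at 4.88. In wild type they were AT4G28460 at 4.65 and AR781 at 4.61. AT1G72920 ranked 19 in the mutant, between AT4G15975 at 4.09 and AT1G78410 at 4.03, and 9 in wild type, between AT5G05300 at 4.59 and AT2G32030 at 4.41. The steps to these neighbours were smaller than the standard errors of the members' own changes.

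The order of the 4 groups differed between the genes only at the top. AT1G66090 averaged 759 ± 56.5 units in chitooctaose-treated mutant, 547 ± 30.0 in chitooctaose-treated wild type, 23.6 ± 6.5 in water-treated mutant and 22.3 ± 3.5 in water-treated wild type (SD, n = 3 each). For AT1G72920 chitooctaose-treated mutant averaged 389 ± 50.8, chitooctaose-treated wild type 425 ± 34.1, water-treated mutant 23.9 ± 8.3 and water-treated wild type 19.3 ± 2.9. The water groups overlapped for both genes. The chitooctaose groups overlapped for AT1G72920 and did not for AT1G66090, where every mutant array was above every wild-type array.

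Whether the mutation moved these levels is a question the choice of the genes did not use directly, although it rests on the same arrays. In chitooctaose, AT1G66090 had a mutant level 0.47 ± 0.19 above wild type in log2 units (95% confidence interval 0.05 to 0.89). It did not pass over all probe sets (limma adjusted p = 0.742, unadjusted p = 0.0316), and with 3 arrays against 3 the exact two-sided permutation test gave 0.1, the smallest p it allows. Groups that do not overlap, with the mutant higher, were found for 4.9% of all probe sets in this comparison. Leaving out 1 array at a time gave 0.43 to 0.54 for AT1G66090. The SE is taken from the spread over all 4 groups, water arrays included. Without array 3 of water-treated mutant the difference was 0.47 ± 0.11 (limma adjusted p = 0.449, unadjusted p = 0.00205). Without array 1 of chitooctaose-treated wild type it was 0.43 ± 0.22 (limma adjusted p = 0.755, unadjusted p = 0.0835). AT1G72920 differed by -0.13 ± 0.22 between the mutant and wild type in chitooctaose (interval -0.61 to 0.35, limma adjusted p = 0.962, exact permutation p = 0.4).

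In water, AT1G66090 differed by 0.05 ± 0.19 between the mutant and wild type (interval -0.37 to 0.47, limma adjusted p = 1, exact permutation p = 0.8). AT1G72920 differed by 0.26 ± 0.22 (interval -0.22 to 0.74, limma adjusted p = 0.945, exact permutation p = 0.4). These water differences rested on single arrays. Without array 3 of water-treated mutant they were 0.31 for AT1G66090 (limma adjusted p = 0.781, unadjusted p = 0.0362) and 0.52 for AT1G72920 (adjusted p = 0.711, unadjusted p = 0.0159). Without array 1 of that group they were -0.08 and 0.01. For AT1G66090 the value was also -0.08 without array 2 of water-treated mutant, and -0.06 without array 3 and 0.16 without array 2 of water-treated wild type. For AT1G72920 it was 0.13 without array 3 of water-treated wild type. Averaged over both treatments the genotype difference was 0.26 ± 0.135 for AT1G66090 (limma adjusted p = 0.687) and 0.06 ± 0.15 for AT1G72920 (limma adjusted p = 0.955). None of these differences was called, in comparisons where limma called 0.0321% of probe sets in water, 0.0214% in chitooctaose and 0.0375% for the average.

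The response of the mutant minus that of wild type was 0.42 ± 0.27 for AT1G66090 (interval -0.17 to 1.02, limma adjusted p = 0.997, unadjusted p = 0.146). For AT1G72920 it was -0.39 ± 0.31 (interval -1.07 to 0.29, limma adjusted p = 0.997, unadjusted p = 0.23). The estimates of the 2 genes differed in sign, and both intervals included 0. Limma called 0% of all probe sets for this difference, with 4.6% at an unadjusted p under 0.05. Single arrays moved both estimates. Without array 3 of water-treated mutant, the difference was 0.16 ± 0.17 for AT1G66090 and -0.65 ± 0.24 for AT1G72920 (limma adjusted p = 0.999 for both, unadjusted p = 0.359 and 0.0219). For AT1G72920 it was -0.14 without array 1 of water-treated mutant and -0.26 without array 3 of water-treated wild type. Without the 2 wild-type arrays that stood apart, it was 0.47 ± 0.33 for AT1G66090 and -0.53 ± 0.36 for AT1G72920. The intervals still leave room for a response of AT1G66090 up to 1.02 larger, or of AT1G72920 up to 1.07 smaller, in the mutant on the log2 scale.

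On the log2 scale the spread of both genes lay mostly in the water groups, whose levels lie near the floor. In units of intensity the SD of both genes was larger with chitooctaose in both genotypes. For AT1G66090 the SD of log2 intensity was 0.11 with chitooctaose against 0.45 in water in the mutant, and 0.08 against 0.23 in wild type. For AT1G72920 it was 0.18 against 0.51 in the mutant and 0.12 against 0.23 in wild type. The residual SD over all 12 arrays, 0.259 for AT1G66090 and 0.299 for AT1G72920, was larger than that of 85.8% and 91.9% of tested probe sets, whose median was 0.159. Water array 3 was the lowest of its group for both genes in both genotypes. Without array 3 of both water groups, an alternative chosen after seeing the data, the difference between the responses was 0.27 ± 0.15 for AT1G66090 and -0.52 ± 0.23 for AT1G72920 (limma adjusted p = 1 for both, unadjusted p = 0.109 and 0.048).

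The deviations of the 2 genes from their group means had the same sign on 5 of the 6 water arrays and on 0 of the 6 chitooctaose arrays. With chitooctaose, AT1G66090 was lowest in the mutant on array 2, where AT1G72920 was highest. In wild type AT1G66090 was lowest on array 1, where AT1G72920 was again highest. These are small steps, within a 1.29-fold range in any chitooctaose group.

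AT1G72920 lies in a run of TIR genes on chromosome 1, from AT1G72840 to AT1G72950. AT1G66090 lies on the same chromosome but outside that run, 717 protein-coding genes away in the RefSeq table of assembly TAIR10.1. Of the 11 genes listed for the run, 9 had a probe set of 1 gene. AT1G72910 and the gene TIR (AT1G72930), which flank AT1G72920, had none in the table used and were not analysed here. AT1G72870 was at the floor on all arrays.

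Of the 7 other genes of the run that were tested, 3 rose in both genotypes, 42.9% against the 5.95% and 6.06% of all probe sets in the mutant and wild type. They were the nearest measured genes on either side of AT1G72920. AT1G72900 had 917, 1135 and 865 units on the chitooctaose arrays of the mutant, against 108, 141 and 101 on its water arrays, and 1223, 790 and 992 units with chitooctaose in wild type, against 118, 120.5 and 104 in water. Its rise was 3.06 ± 0.17 in the mutant and 3.12 ± 0.17 in wild type (limma adjusted p = 2.69e-07 and 2.41e-07), and treated and water arrays did not overlap.

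AT1G72940 had 814, 1134 and 902 units on the chitooctaose arrays of the mutant, against 100.5, 89.0 and 62.8 on its water arrays. In wild type it had 1060, 802 and 969 with chitooctaose, against 64.3, 79.8 and 71.7 in water. It rose by 3.51 ± 0.18 in the mutant and 3.71 ± 0.18 in wild type (limma adjusted p = 1.45e-07 and 9.58e-08). AT1G72950 rose by 1.84 ± 0.15 in the mutant and 1.67 ± 0.15 in wild type (limma adjusted p = 6.98e-06 and 1.62e-05), with group means of 161 and 46.1 units for chitooctaose and water in the mutant and 177 and 55.4 in wild type.

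The tested genes at the other end of the run were not called, but most of them were dim. AT1G72840 and AT1G72860 had arrays at the floor in every group, with group means of 16.4 to 17.9 and 16.3 to 19.0 units. Their changes therefore rest on values at or near the floor. Group means were 24.1 to 30.4 for AT1G72850 and 56.4 to 63.1 for AT1G72890. AT1G72840, AT1G72850, AT1G72860 and AT1G72890 had changes between -0.10 and 0.20 in both genotypes and were not called, with limma adjusted p-values of 0.624 or above. Along the gene order, leaving out AT1G72920 because it was chosen for its change, no tested gene of the run up to AT1G72890 was called. Beyond that gene, AT1G72900, AT1G72940 and AT1G72950 were called. The next gene outward, AT1G72960, had 0.02 in both genotypes (limma adjusted p = 0.978 in the mutant and 0.965 in wild type).

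**Figure D2:**
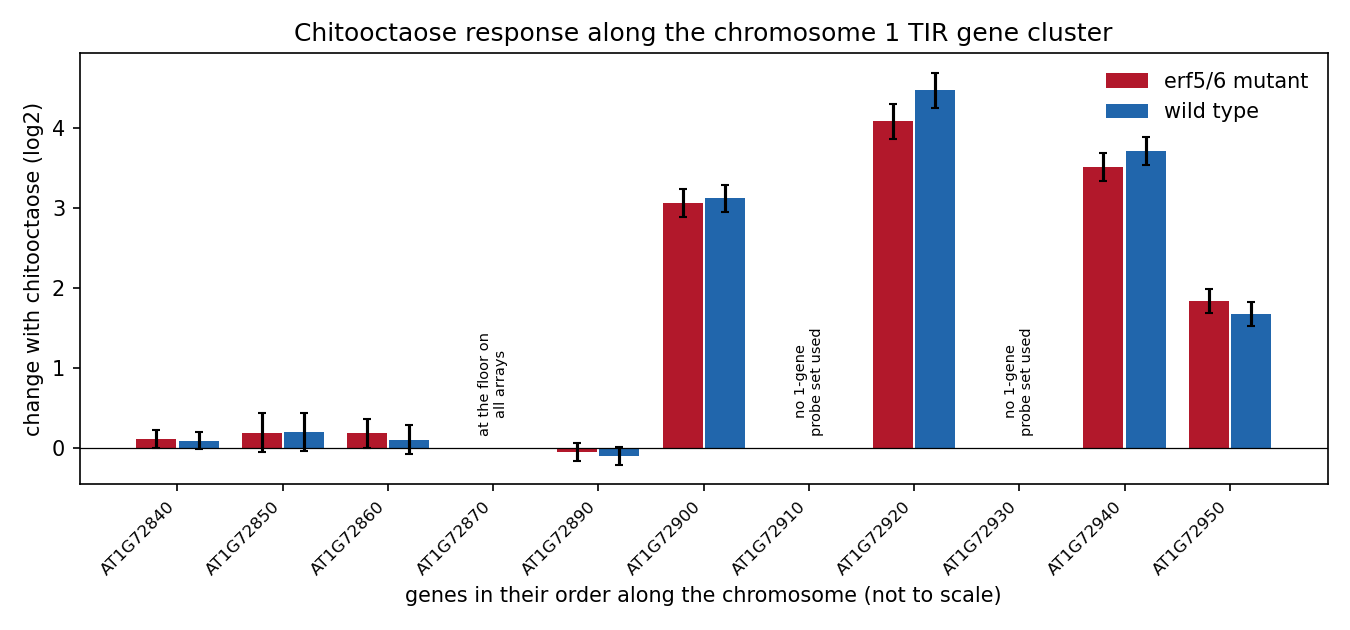
Change with chitooctaose (log2, vertical axis) of the genes of the chromosome 1 run in their order along the chromosome (horizontal axis), with the erf5/6 mutant left of wild type for each gene. Bars start at 0 and error bars are SE from limma with 3 arrays per group. The bars of AT1G72900, AT1G72920, AT1G72940 and AT1G72950 stand between 1.67 and 4.47, and the other tested genes lie between -0.10 and 0.20.

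The order of arrays within a group was shared by some of the rising genes only. With chitooctaose in wild type, AT1G72920, AT1G72900 and AT1G72940 were all highest on array 1 and lowest on array 2. AT1G72950 ran the other way there, with 159, 193 and 180.3 units on arrays 1 to 3. With chitooctaose in the mutant all 4 were highest on array 2. In water-treated wild type AT1G72940 was lowest on array 1, where AT1G72920 was highest. These genes are related in sequence, and how far each probe set also takes up transcripts of the others was not tested.

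AT1G66090 has no TIR gene beside it. Of its 5 neighbours on each side, 4 were tested, and the nearest on either side had smaller changes. AT1G66080 rose by 0.53 in the mutant and 0.55 in wild type (limma adjusted p = 0.0436 and 0.0324). The mutant call was lost without any of 8 arrays: arrays 2 and 3 of water-treated mutant, any chitooctaose-treated mutant array, arrays 1 and 3 of water-treated wild type or array 3 of chitooctaose-treated wild type (adjusted p between 0.059 and 0.142). The wild-type call was lost without any of 5, namely any water-treated wild-type array or array 2 or 3 of chitooctaose-treated wild type (adjusted p between 0.0548 and 0.114). AT1G66100 had 0.52 in the mutant (limma adjusted p = 0.367) and rose by 1.21 in wild type (adjusted p = 0.0268), a call lost without array 1 or 3 of water-treated or of chitooctaose-treated wild type (adjusted p between 0.0565 and 0.0998).

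The wider TIR family shows how the 2 genes compare with their relatives. A list of 133 TIR-domain genes had 92 with a probe set of 1 gene, of which 71 passed the floor. Besides the 2 genes, 90 were measured and 69 tested. Of these 69, limma called 25 higher and 0 lower in the mutant, or 36.2%, and 18 higher and 0 lower in wild type, or 26.1%, against 5.95% and 6.06% of all probe sets called higher. Over all probe sets 2.66% were called lower in the mutant and 4.08% in wild type. Their median change was 0.20 in the mutant and 0.10 in wild type, against medians of -0.09 and -0.07 over all probe sets. Passing the floor favours genes that are high in 1 group: 7 of the 69 were at the floor on all 6 water arrays, and 4 of these were among the calls in the mutant and 3 among those in wild type.

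All 18 genes called in wild type were also called in the mutant. Apart from the run on chromosome 1, the largest rise was that of AT5G44910, which encodes a protein with a TIR domain and neither nucleotide-binding site nor repeats. It averaged 306 units with chitooctaose against 44.3 in water in the mutant, and 260 against 48.3 in wild type, rises of 2.80 and 2.42 (limma adjusted p = 1.7e-07 and 5.87e-07). AT2G20142, of the same short form, averaged 102 against 18.1 in the mutant and 109 against 23.2 in wild type, rises of 2.49 and 2.24. AT3G04210, a TIR gene with a nucleotide-binding site and no repeats, averaged 274 against 56.3 in the mutant and 258 against 54.1 in wild type, rises of 2.29 and 2.26.

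Several called genes encode full-length receptors with a nucleotide-binding site and repeats. AT1G63750 rose by 2.38 in the mutant and 1.83 in wild type, AT5G22690 by 2.01 and 1.68, AT5G58120 by 1.99 and 1.79, and AT4G19520 by 1.70 and 1.38. The short TIR gene AT1G57630 lay among them, at 2.24 and 1.68. AT3G44630 rose by 1.20 in the mutant and 1.02 in wild type, AT5G11250 by 1.10 and 0.83 and AT5G38350 by 0.95 and 1.03. The changes of AT2G32140, from the floor on all 6 water arrays, were at least 2.10-fold in the mutant and at least 2.43-fold in wild type, and those of AT1G56540 at least 1.40-fold and 1.30-fold.

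AT5G40910 rose by 1.14 in the mutant and 0.72 in wild type (limma adjusted p = 4.86e-04 and 0.0141). Its wild-type call was lost without array 1 of water-treated wild type (adjusted p = 0.0521) or array 1 of chitooctaose-treated wild type (0.055). AT1G31540 was at the floor on all 6 water arrays and at least 2.02-fold higher in the mutant and 1.45-fold in wild type (limma adjusted p = 8.63e-04 and 0.0457). When arrays were left out singly, 10 of the 12 omissions ended its wild-type call (adjusted p between 0.0568 and 0.123), the exceptions being array 2 of either chitooctaose group.

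**Figure D3:**
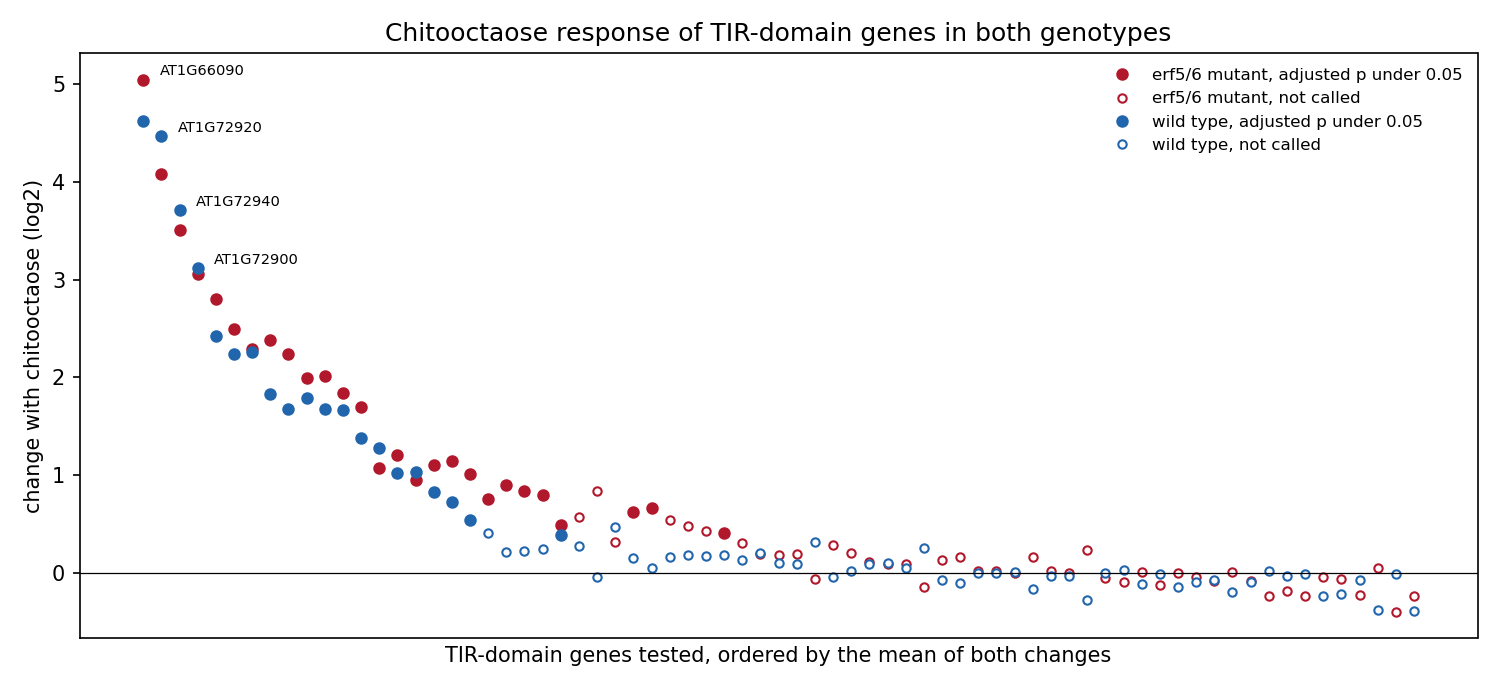
Change with chitooctaose (log2, vertical axis) of the 71 tested TIR-domain genes, ordered along the horizontal axis by the mean of both genotypes, with the erf5/6 mutant in red and wild type in blue. Filled points have an adjusted p under 0.05 in limma and open points do not. AT1G66090 and AT1G72920 lie at the top, followed by AT1G72940 and AT1G72900, and no gene was called lower.

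The 7 TIR genes called in the mutant alone had fitted changes of 0.40 to 0.90 there, with floored values taken as 16. On the same footing AT1G56540, called in both genotypes, had 0.49 in the mutant, so the 2 sets overlapped in size. AT5G17680, from the floor on its water arrays in the mutant, was at least 1.87-fold higher there and had 0.21 in wild type. AT1G56520, at the floor on all 6 water arrays, was at least 1.73-fold higher in the mutant, and in wild type, where 1 of the 3 chitooctaose arrays was also at the floor, it was not called (adjusted p = 0.414) and no fold is given. AT4G36150 had 0.84 in the mutant and 0.22 in wild type, AT5G51630 0.75 and 0.41, AT4G19510 0.66 and 0.05, AT5G18360 0.62 and 0.15, and AT1G63880 0.40 and 0.18. The difference between the responses was not called for any of them (all limma adjusted p-values above 0.9, unadjusted p between 0.00723 and 0.183). For AT5G18360 the mutant call ended on omission of array 3 from either mutant group, with an adjusted p of 0.102 for the water group and 0.109 for the chitooctaose group. That of AT1G63880 was lost without any of the 6 mutant arrays, array 2 of water-treated wild type or array 3 of chitooctaose-treated wild type (adjusted p between 0.0556 and 0.149), and AT5G51630 passed in wild type once its chitooctaose array 3 was omitted (adjusted p = 0.0456).

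Across the 69 other TIR genes the mutant response minus the wild-type response had a median of 0.16, against 0.00 over all probe sets, and was positive for 50, or 72.5%, against 49.3% of all probe sets. All of these genes were read on the same 12 arrays and are not independent. No TIR gene was called for this difference by limma, and 8 had an unadjusted p under 0.05, 11.6% against 4.6% of all probe sets, each with a positive difference. Without array 2 of chitooctaose-treated wild type, which stood apart, there were 15, of which 12 had a positive difference, and with median centring 8, of which 6 had. Besides 4 of the genes called in the mutant alone and AT1G31540, the 8 of the main fit were AT3G44400 (0.89), AT4G12010 (0.51) and AT5G22690 (0.33). Several of these differences rest on values at or near the floor. AT1G31540 and AT1G56520 were at it on all 6 water arrays, and AT5G17680 on all water arrays of the mutant. AT3G44400 had water means of 18 units in the mutant and 22.5 in wild type, with 1 wild-type water array at the floor. The changes of AT4G12010 ran opposite ways, at 0.23 in the mutant and -0.28 in wild type, and neither was called. On the deposited intensities, with no quantile step, the median over all probe sets was itself 0.10, and that of the TIR genes 0.25. There the difference was positive for 76.8% of the TIR genes and 71.1% of all probe sets. With median centring these shares were 62.3% and 46.9%.

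No TIR gene was called between the genotypes in water or in chitooctaose. At an unadjusted limma p under 0.05 there were 4 and 9 among the 69, or 5.8% and 13%. Of all probe sets 6.05% and 6.46% had such a p. All 9 in chitooctaose were higher in the mutant, and 0 of the 4 in water were. Over all probe sets, at any p, 47.6% were higher in the mutant in chitooctaose and 48.5% in water. The difference between the responses is the chitooctaose difference minus the water difference. AT1G31540, AT1G56520, AT3G44400, AT4G12010, AT4G19510, AT4G36150 and AT5G17680 were in both these 9 and the 8 above. The counts are therefore not separate results. Omitting chitooctaose array 2 of wild type turned the 9 into 16, of which 13 were higher in the mutant. Omitting its array 3 turned them into 5, of which 4 were. The 4 in water became 2 on omission of chitooctaose array 3 of wild type or chitooctaose array 1 of the mutant. They became 5 without array 1 of water-treated mutant and 6 without array 3 of water-treated wild type, with 1 higher in the mutant each time. Without array 3 of water-treated mutant there were 4 among 68 tested, of which 2 were higher in the mutant. The lowest mean changes over both genotypes were those of AT5G40060, at -0.24 in the mutant and -0.39 in wild type, AT4G23510, at -0.40 and -0.01, and AT5G40100, at 0.05 and -0.38. None of these was called (limma adjusted p of 0.188 or above).

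Few genes that act downstream of TIR domains could be read. Of 11 genes of the EDS1 node, 3 had a probe set of 1 gene. SAG101, which encodes a partner of EDS1, rose by 1.14 ± 0.16 in the mutant and 1.00 ± 0.16 in wild type (limma adjusted p = 5.89e-04 and 0.00173), with 139 units against 62.8 and 145 against 71.2 for chitooctaose against water. AT3G48080, which encodes a second EDS1 protein, had -0.14 in the mutant and 0.00 in wild type and was not called. AT5G66890, an NRG1-related gene, was at the floor on all arrays.

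SGT1A, a co-chaperone of immune receptors and the 1 measured gene of 6 in its list, rose by 0.79 ± 0.09 in the mutant and 0.47 ± 0.09 in wild type (limma adjusted p = 9.93e-05 and 0.00542). Of 14 genes for receptors with a coiled coil in place of the TIR domain, 3 were measured, and CW9 rose by 1.47 ± 0.12 in the mutant and 1.30 ± 0.12 in wild type (limma adjusted p = 8.6e-06 and 2.6e-05). AT5G63020 had 0.16 and 0.13 and AT1G50180 0.11 and -0.05, and neither was called. None of the 3 genes listed for proteins guarded by receptors and none of the 7 of the salicylate branch had a probe set of 1 gene.

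Likeness to each gene was measured as the root mean square difference between log2 values over the 12 arrays, each gene being centred on its own mean. Over 10553 other probe sets of 1 gene, the nearest to AT1G66090 were AT4G28460 (0.268), the IDA-like peptide gene AT5G05300 (0.277), STZ (0.312), the WRKY factor gene WRKY53 (0.313) and the IDA-like peptide gene AT3G10930 (0.323). The nearest to AT1G72920 were AT2G23270 (0.261) and AT4G37290 (0.268), which encode precursors of secreted peptides and were at the floor on all 6 water arrays, the acetyltransferase family gene AT2G32030 (0.273), AT1G35210 (0.283) and AT3G10930 (0.302). Over those water arrays AT2G23270 and AT4G37290 have only an upper bound, so their distances and places describe floored values, as do those of AT1G35210 on 4 of these arrays. AT3G10930 was the gene in both sets of 5, but with 32 units added in place of the floor it was in neither. The distance between the 2 TIR genes was 0.408, which placed AT1G72920 at rank 12 from AT1G66090 and AT1G66090 at rank 21 from AT1G72920, against median distances of 2.48 and 2.20. All these values share the same arrays and the same split by treatment, which makes up most of each pattern.

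**Figure D4:**
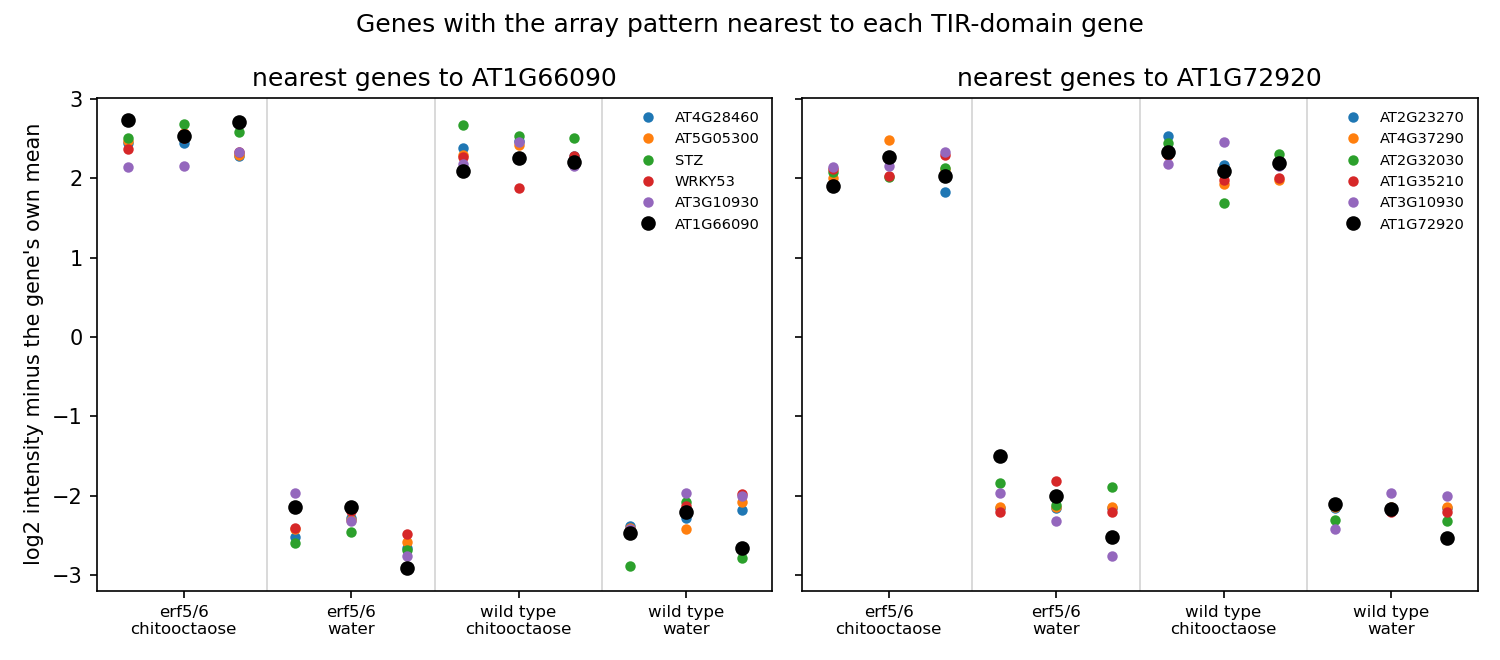
Log2 intensity minus the gene's own mean over 12 arrays (vertical axis) for AT1G66090, AT1G72920 and the 5 genes nearest to each (coloured points), with arrays 1 to 3 of each group from left to right. Black points are the TIR-domain genes. All the genes drawn lie well above their mean with chitooctaose and well below it in water,.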

How the data were processed

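RNA of 12 seedling samples was measured on 1-colour expression arrays. The authors deposited a linear intensity for each probe set. Per the labels' protocols, biotin-labelled antisense RNA was made with an oligo(dT) primer. For the authors' probe summarization, background correction and scaling, details are not given in the sources used. Medians of the deposited intensities lay between 77.0 and 83.2.

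Intensities were quantile normalized, values below 16 were set to 16 (24.1% of each array) and log2 was taken. Probe sets that nowhere exceeded this floor (4066) did not enter the fits. Genes were named from the platform annotation, updated through a RefSeq table of assembly TAIR10.1 (13436 of 13513 probe sets of 1 gene matched). Group means were fitted over all 12 arrays with limma 3.58.1 in R 4.3.3, with Benjamini-Hochberg adjustment over all 18680 probe sets, called at an adjusted p under 0.05. P-values are two-sided. The number of arrays limits the precision. The procedure was tested on simulated data.

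The 2 genes and the lists were chosen with earlier results of these data known. Named genes were, by rule, the 2 genes, all measured genes of the short lists, TIR and coiled-coil genes called in either genotype with the 3 highest and 3 lowest mean changes, the 5 nearest genes and the neighbours in rank. Chromosomal neighbours and TIR genes with a low unadjusted p for the difference between the responses were added after their values were seen. Same-numbered arrays of different groups had deviations correlated between -0.265 and 0.427, so the numbers were not taken as pairs. Between the 2 water groups these correlations were 0.083, 0.172 and 0.427 for arrays 1 to 3. The highest with another number were 0.021, 0.186 and -0.175. Whether water arrays of the same number shared an effect was not tested. Results with the number as a block are given below.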

Additional observations from a re-analysis of the deposited data

How the results depend on the processing

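When 32 was added to each intensity and no floor set, the changes of AT1G66090 were 3.85 in the mutant and 3.42 in wild type, and those of AT1G72920 2.92 and 3.17; all other alternatives kept these 4 changes within 1 residual SD. Leaving out 1 array at a time gave 4.80 to 5.18 and 4.53 to 4.74 for AT1G66090, and 3.83 to 4.33 and 4.35 to 4.54 for AT1G72920, in the mutant and wild type. No genotype difference or difference between the responses of the 2 genes was called under any alternative run; for AT1G66090 in chitooctaose the adjusted p lay between 0.221 and 1. Without the dimmest 40% of probe sets, 28 other TIR genes were tested, of which 15 were called higher in the mutant and 12 in wild type. Of all 13647 probe sets then tested, 972 were called higher in the mutant and 996 in wild type. Coiled-coil receptor genes gave 0 calls in either genotype there because CW9 was left out. Single arrays left out gave 23 to 26 TIR genes higher in the mutant and 16 to 20 in wild type. With the replicate number as a block there were 24 and 17, and the change of AT1G66090 was 5.05 and 4.63; the block ended the calls of AT1G31540 in wild type (adjusted p = 0.0727), AT1G63880 (0.0638) and AT5G18360 (0.0613) in the mutant, and AT1G66080 in both (0.0817 in the mutant and 0.0602 in wild type). With only the arrays compared, the mutant calls of AT1G56520 (adjusted p = 0.0751), AT4G19510 (0.0694), AT5G18360 (0.141) and AT1G66080 (0.0674) and the wild-type calls of AT1G31540 (0.18), AT5G40910 (0.0646), AT1G66080 (0.117) and AT1G66100 (0.135) were lost. With probe sets at the floor kept, calls were lost for AT1G63880 (0.0677), AT5G18360 (0.0677) and AT1G66080 (0.0847) in the mutant and AT1G31540 (0.0878), AT1G66080 (0.0649) and AT1G66100 (0.0698) in wild type; the causes were not tested. By likeness, STZ moved to rank 45 from AT1G66090 with the offset, and AT2G32030 to rank 47 from AT1G72920. AT3G10930 moved to rank 6 from AT1G66090 and rank 21 from AT1G72920. WRKY53 moved to rank 8 from AT1G66090, and AT1G35210 to rank 6 from AT1G72920.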
